A study of Mus musculus with 15 samples.

Results

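The lysosomal proton pump and the channels and transporters of the lysosomal membrane were described in RAW 264.7 cells, a mouse macrophage line, after saturation with silica nanoparticles (SNPs). The 36 genes were taken by symbol from the 57186 genes of the count table and comprised 19 pump subunits, 8 channels and exchangers and 9 solute transporters. All 36 passed the filter of at least 10 counts summed over the libraries and were among the 19839 genes tested. Poly(A) RNA was sequenced from 5 groups of 3 libraries each, all at 6 h. The nontreated controls received no particle. SNP100-treated cells received nonporous Stöber particles of 100 nm at 50 µg/mL, and SNP50-treated cells received nonporous Stöber particles of 50 nm at 25 µg/mL. MSNP-treated cells received mesoporous particles and HMSNP-treated cells hollow mesoporous particles, both of 100 nm and at 200 µg/mL. The doses were those the study's methods give as the highest nontoxic concentrations, so that only MSNP and HMSNP shared a dose. All libraries came from a single cell line, and the labels do not say that the 3 libraries of a group came from separate cultures, so p-values measure only the spread between these libraries, which may be technical.

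The vacuolar-type ATPase (V-ATPase) pumps protons into the lysosome. Its peripheral V1 sector hydrolyses ATP and turns a rotor, and its membrane V0 sector lets protons pass. The acid inside drives solute transporters and exchangers, while cation channels such as the TRPML (mucolipin) family release ions to the cytosol. In macrophages this system acidifies the compartments that receive ingested particles. Many lysosomal genes carry the CLEAR element, whose core is the palindrome TCACGTGA and which transcription factors of the TFEB family are known to bind.

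That palindrome was searched on both strands in the window from 250 bases before to 50 bases after the start of each gene's canonical transcript on GRCm39. It was present in 5 of the 36 members (13.9%) and in 1.11% of 21757 protein-coding promoters of the same length, or 1.6% of the 13122 whose genes were tested. Among the channels and transporters it was found in 4 of 17 (23.5%), and among the pump subunits in 1 of 19 (5.26%). The 7-base form TCACGTG, which every palindrome also contains, was in 8 members (22.2%) and 4.15% of the protein-coding promoters, and the shared core CACGTG in 10 members (27.8%) and 7.82%. The AP-1-like motif TGANTCA was in 2 members (5.56%) and 7.15% of the protein-coding promoters. In the RefSeq promoter table (GRCm38.p6), which held 28 of the members, 7 had the palindrome (25%), against 1.12% of its 27025 genes. These were Clcn7, Mcoln1, Slc36a1, Cln3, Atp6v0e, Atp6v1a and Atp6v0d1, of which the last 2 did not have it in the GRCm39 window. By set, the RefSeq table had the palindrome in 4 of 15 channels and transporters (26.7%) and 3 of 13 pump subunits (23.1%). The difference between the sets thus depended on the promoter source. Atp6v1b2, Atp6v1c1, Atp6v1g1, Atp6v1h, Atp6v0a2, Atp6v0d2, Tpcn1 and Slc15a3 were not in the RefSeq table. A match describes these letters only and no binding was measured.

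The 5 members with the palindrome are shown because most of them were among the genes that rose with MSNP. Atp6v0d2 is shown beside them as the pump subunit that rose most, which had no palindrome. Sequences run 5′ to 3′ on the gene's strand and stop at most 30 bases after the start. Capitals mark TCACGTG on either strand, or the whole palindrome where both forms overlap, and in Atp6v0d2 they mark TGANTCA. The stretches lie at chr17:25352309-25352385 (plus strand) for Clcn7, chr8:3550407-3550481 (plus) for Mcoln1, chr11:55095095-55095175 (plus) for Slc36a1, chr7:126182483-126182597 (minus) for Cln3, chr17:26895332-26895399 (plus) for Atp6v0e and chr4:19922631-19922717 (minus) for Atp6v0d2, all on GRCm39.
Clcn7: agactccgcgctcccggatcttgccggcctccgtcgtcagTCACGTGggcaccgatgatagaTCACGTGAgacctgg
Mcoln1: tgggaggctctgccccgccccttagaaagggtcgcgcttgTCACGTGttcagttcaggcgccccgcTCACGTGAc
Slc36a1: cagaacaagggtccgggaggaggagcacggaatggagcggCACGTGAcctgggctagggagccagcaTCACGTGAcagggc
Cln3: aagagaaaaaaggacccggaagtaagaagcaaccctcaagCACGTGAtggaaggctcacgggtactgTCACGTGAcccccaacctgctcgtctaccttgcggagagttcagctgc
Atp6v0e: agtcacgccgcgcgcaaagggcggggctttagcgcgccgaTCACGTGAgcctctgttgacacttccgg
Atp6v0d2: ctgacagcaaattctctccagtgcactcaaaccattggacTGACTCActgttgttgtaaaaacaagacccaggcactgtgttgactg

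**Figure D1:**
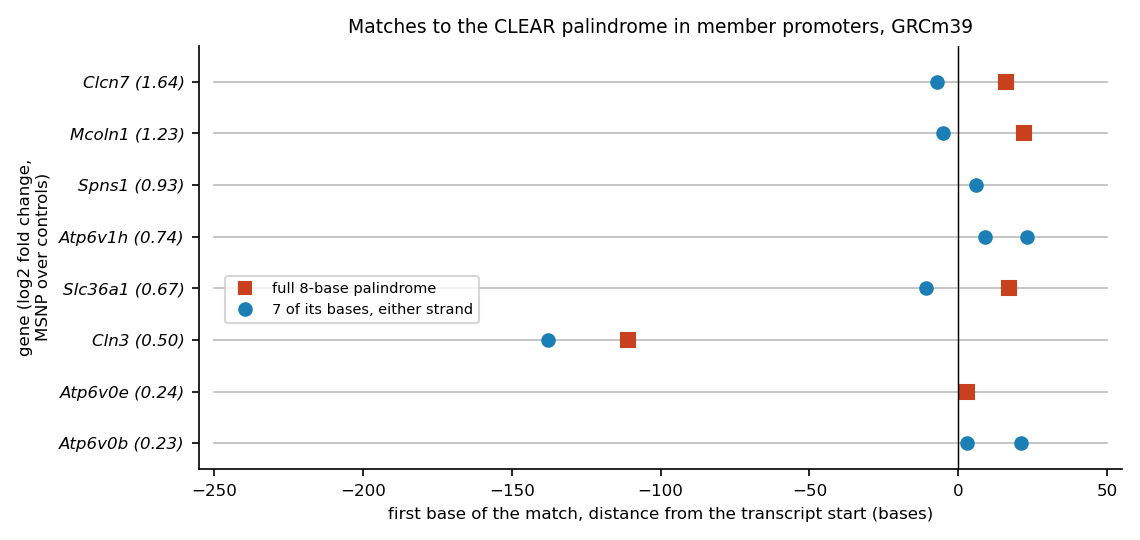
Distance in bases from the transcript start to the first base of each match, for the 8 members with TCACGTG on either strand, ordered by their log2 fold change in MSNP-treated cells over controls (in brackets). Squares are the full palindrome (5 members) and circles the 7-base form alone, and all matches except those of Cln3 lie within 30 bases of the start.

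Clcn7, Mcoln1, Slc36a1 and Cln3 each held a further 7-base match upstream of the palindrome. Of the 8 members with TCACGTG, Atp6v0b and Atp6v0e did not pass the test in MSNP, and the other 6 rose, beside 27 of all 36 members and 11.8% of all tested genes. With all libraries the share that rose was thus the same among the 8 as among all members. It depended on Control replicate 3, a library that differed from the other controls by transcript length. Without it Atp6v0b and Atp6v0e were called higher as well (log2 fold changes of 0.53 and 0.57). All 8 then rose, beside 33 of all 36 members, while 29.5% of all tested genes were called in either direction. Members without TCACGTG in this window rose with all libraries too, among them Atp6v0d2, Mcoln2, Atp6v1d and Ctns. The part of the motif in the rise was not tested.

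Total counts per library lay between 29369934 and 42617812. The libraries carried all 7 macrophage markers tested, with a summed level of 12900 to 19200 CPM (the count scaled to a common library size after TMM adjustment), while epithelial, T cell and B cell markers stayed at or below 0.136 CPM in sum. Of 4 fibroblast markers, 3 were at the floor of 3 counts in each group, and Pdgfrb had 0.761 to 0.896 CPM in the controls and 0.0810 to 0.148 CPM with MSNP. In the labels each group carries a number of its own, whose meaning is not stated, and whatever it marks cannot be told apart from the treatment. Within treated groups the replicates agreed closely, with a mean chi-square per gene of at most 13.9, but Control replicate 3 differed from the other controls (174 and 205, against 66.2 between replicates 1 and 2). It differed by transcript length, from a median log2 difference of 0.70 in the shortest of 10 length bins of genes to -0.86 in the longest. The members differed in this library too. Pump subunits, with a median canonical transcript of 2374 bases, were higher in Control replicate 3 by a median of 0.32 on the log2 scale (14 of 19 higher). Channels and transporters, with a median of 3036 bases, were lower (median -0.15, 3 of 17 higher). Single members did not all follow their length, as Atp6v1h (4183 bases) was at 0.34 and Mcoln2 (2493 bases) at -0.47. The part of length in the members' values was not tested. Comparisons with the controls are therefore also given without this library.

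Differences between groups were tested with edgeR's quasi-likelihood test on all 15 libraries, with Benjamini-Hochberg adjustment over all 19839 tested genes, and a member was called at an adjusted p under 0.05. Standard errors (SE) are those of the log2 fold change. The summed level of the members was 4070, 4060 and 4420 CPM in the controls and 7600, 7480 and 7510 CPM in MSNP-treated cells. It was 4430 to 4630 CPM in SNP100-, 4390 to 4450 CPM in SNP50- and 4150 to 4190 CPM in HMSNP-treated cells. The MSNP libraries stood apart from all others. The macrophage markers summed to 15200 to 19200 CPM in the controls and 12900 to 13800 CPM with MSNP, but they did not move together. Lyz2 (10700 to 15100 and 8930 to 9810 CPM), Csf1r (2370 to 3140 and 1780 to 1790 CPM) and Itgam (53.5 to 67.0 and 41.5 to 44.3 CPM) were lower with MSNP without overlap, Cd68, itself a lysosomal membrane protein, was higher (923 to 996 and 1510 to 1570 CPM), and Adgre1, Ptprc and Spi1 overlapped between the groups. Their part in the members' rise was not tested.

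In MSNP-treated cells, 27 of the 36 members rose against the controls and 1, Atp6v0e2, fell, while over all tested genes 22.8% were called in either direction (11.8% higher and 11.0% lower). Of the pump subunits, 12 of 19 rose and 1 fell, with a median log2 fold change of 0.50. Of the channels and transporters, 15 of 17 rose, with a median of 0.93, beside a median of -0.05 over all tested genes. The same 28 members did not overlap between the groups, meaning that every MSNP library lay on the same side of every control. Over all tested genes, 17.0% did not overlap on the higher side and 16.2% on the lower side. Without Control replicate 3, 33 members rose and 2 fell, with medians of 0.69 for the pump and 0.94 for the channels and transporters, and 29.5% of genes were called. The gap between the medians of both sets, 0.43 with all libraries, was thus smaller without that library. The channels and transporters still had the higher median.

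**Figure D2:**
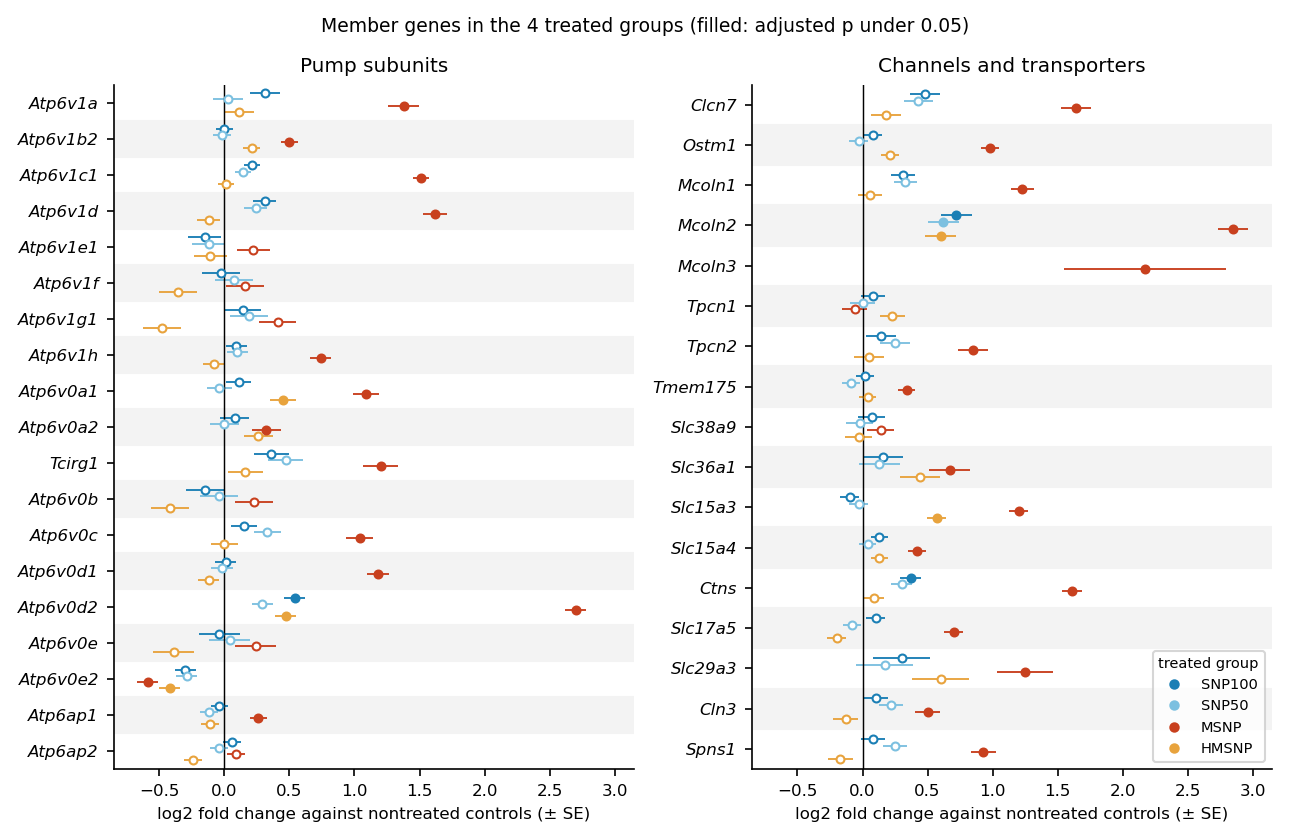
Log2 fold change (± SE) of each member in SNP100-, SNP50-, MSNP- and HMSNP-treated cells against the nontreated controls, with pump subunits on the left and channels and transporters on the right; filled points have an adjusted p under 0.05. MSNP points lie right of the other 3 groups for most members, up to 2.85 for Mcoln2, whereas Atp6v0e2 lies left of 0 (-0.59); Mcoln3 is drawn for MSNP only, since the other groups had at most 3 counts per library.

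Of the 8 V1 subunits, 5 rose, led by Atp6v1d, Atp6v1c1 and Atp6v1a. Atp6v1d, the central rotor subunit, had 44.0, 43.0 and 55.9 CPM in the controls and 153, 143 and 142 CPM with MSNP. All MSNP libraries were well above all others, and the log2 fold change was 1.62 (SE 0.0908, adjusted p = 3.46e-09). Atp6v1d shares 727 exonic bases with Eif2s1 and 958 with Pals1 on the opposite strand, which had log2 fold changes of 0.00 and 0.37. Atp6v1c1, which joins V1 to V0 during reversible assembly, had 206, 217 and 228 CPM in the controls and 651, 614 and 595 CPM with MSNP, a log2 fold change of 1.51 (SE 0.0619, adjusted p = 1.69e-10). Atp6v1a, the catalytic ATP-binding subunit, was the most abundant member by CPM. It had 601, 710 and 464 CPM in the controls and 1590, 1550 and 1460 CPM with MSNP, without overlap, and rose by 1.38 (SE 0.119, adjusted p = 4.39e-07). Atp6v1a shares 564 exonic bases with Naa50 on the opposite strand, which had a log2 fold change of 0.51. The regulatory subunit Atp6v1h rose by 0.74 (SE 0.0822) and the noncatalytic Atp6v1b2 by 0.50 (SE 0.0671). The remaining 3 subunits, the stalk subunits Atp6v1e1 and Atp6v1g1 and the rotor subunit Atp6v1f, did not pass the test, with log2 fold changes of 0.22 (95% confidence interval -0.06 to 0.49), 0.41 (0.10 to 0.72) and 0.16 (-0.15 to 0.47). Their canonical transcripts are short (1226, 1135 and 703 bases), and all were highest among controls in replicate 3. Without it their log2 fold changes were 0.47, 0.69 and 0.46, and all were called.

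Within the V0 sector the spread was wider, from a fall in Atp6v0e2 to the second-largest rise among the members. Atp6v0d2, an alternative form of the subunit that connects rotor and ring and is known for its abundance in osteoclasts, had 32.0, 32.5 and 26.3 CPM in the controls and 206, 192 and 192 CPM with MSNP. This 6.50-fold difference had a log2 fold change of 2.70 (SE 0.0833, adjusted p = 1.11e-11) and ranked 13 among all tested genes by p. Of 5 osteoclast markers, Calcr was at 0 counts in every library, and the summed level of the list was 48.9 to 63.7 CPM in the controls and 52.0 to 57.1 CPM with MSNP. Within that sum the protease Ctsk was at 9.29 to 11.7 CPM in the controls and 17.2 to 19.4 CPM with MSNP, while Acp5 was at 34.6 to 47.0 and 30.7 to 33.9 CPM, Ocstamp at 1.42 to 1.80 and 0.0810 to 0.330 CPM and Dcstamp at 2.75 to 3.56 and 3.24 to 4.15 CPM. Their part in the rise of Atp6v0d2 was not tested. Its ubiquitous counterpart Atp6v0d1 rose by 1.18 (SE 0.0828). Among the a subunits, which line the proton path, Tcirg1 (the a3 form) rose by 1.20 (SE 0.135), Atp6v0a1 by 1.09 (SE 0.0982) and Atp6v0a2 by 0.32 (SE 0.111, adjusted p = 0.0476). The call of Atp6v0a2 was lost without any 1 library other than Control replicate 2 or 3, and its log2 fold change was 0.18 without Control replicate 3. Atp6v0a1 had 74.3, 83.2 and 58.9 CPM in the controls and 155, 155 and 151 CPM with MSNP.

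Among the small membrane subunits, Atp6v0c, the proton-carrying ring subunit, rose by 1.04 (SE 0.102). Its near-identical processed pseudogene Atp6v0c-ps2 was listed at 95.6 CPM in the controls and 238 CPM with MSNP, so the reads of both may be split and this value is uncertain. Atp6v0e2 was the only member that fell. It had 78.9, 74.5 and 95.7 CPM in the controls and 54.1, 55.7 and 55.2 CPM with MSNP, a log2 fold change of -0.59 (SE 0.0807, adjusted p = 5.11e-05). Its paralog Atp6v0e and the ring subunit Atp6v0b did not pass (0.24, confidence interval -0.09 to 0.58, and 0.23, -0.08 to 0.54). Without Control replicate 3 they were at 0.57 and 0.53 and were called, and their canonical transcripts are short (667 and 1039 bases). Of the accessory subunits, Atp6ap1 rose by 0.26 (SE 0.0669), and Atp6ap2, the prorenin receptor, had 0.09 (confidence interval -0.06 to 0.23).

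**Figure D3:**
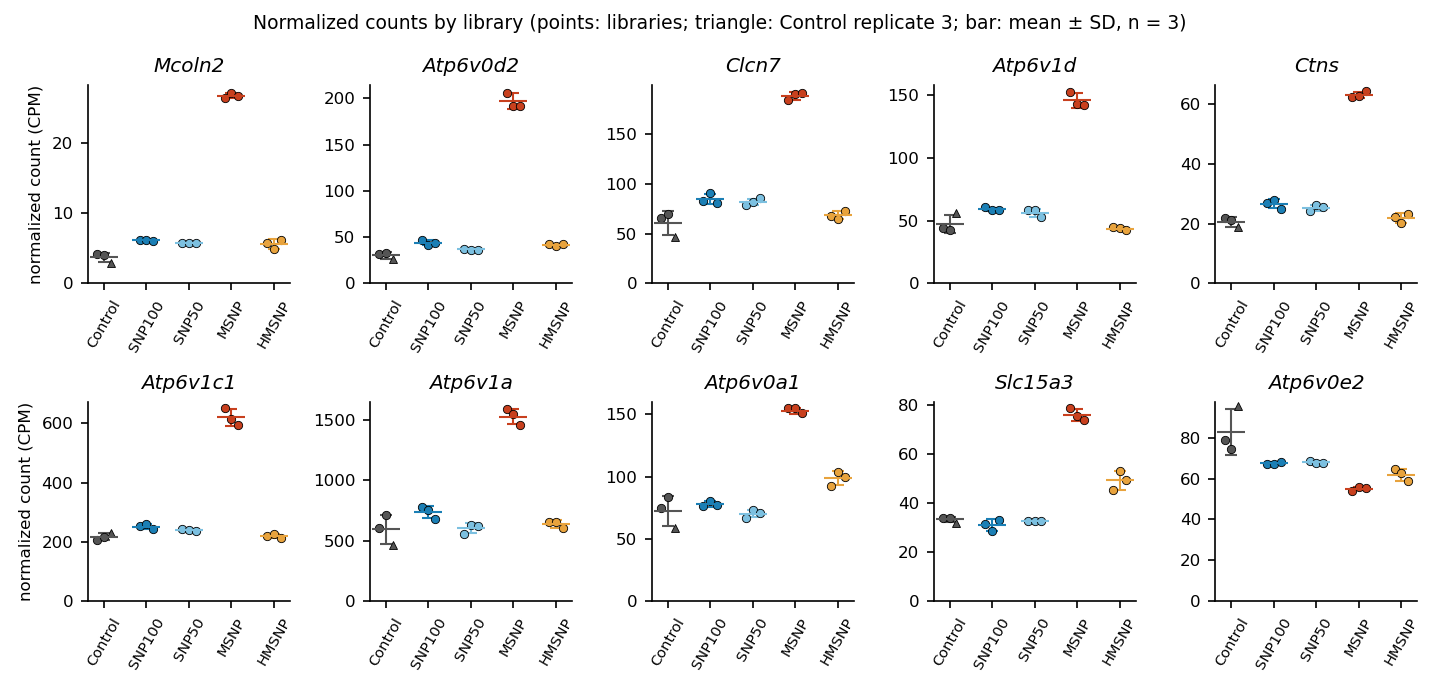
Normalized counts (CPM, linear axes from 0) in each of the 15 libraries for 10 of the members described in the text, with the mean ± SD of each group (n = 3). Triangles are Control replicate 3; the 3 MSNP libraries are above all others in 9 panels and below them in the panel of Atp6v0e2.

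The cation channels of the TRPML family held the largest rise. Mcoln2 (TRPML2) had 4.17, 4.08 and 2.97 CPM in the controls and 26.5, 27.2 and 26.7 CPM with MSNP, a 7.19-fold difference with a log2 fold change of 2.85 (SE 0.117, adjusted p = 1.80e-10). Mcoln1 (TRPML1), the widely expressed calcium-release channel, rose by 1.23 (SE 0.0917, adjusted p = 9.09e-08) from 38.1 to 89.2 CPM. Mcoln3 had 3, 1 and 2 counts in the controls and 8, 10 and 9 counts with MSNP. The fit called it (adjusted p = 0.0204), and the ratio of the summed counts, 27 against 6, was 4.71 after scaling for library size, with an exact 95% counting interval of 1.91 to 14.0. The call was lost without MSNP replicate 2.

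Clcn7, the chloride-proton exchanger of the lysosome, had 65.8, 69.2 and 46.7 CPM in the controls and 184, 190 and 191 CPM with MSNP and rose by 1.64 (SE 0.115, adjusted p = 4.64e-08). Its partner subunit Ostm1 rose by 0.98 (SE 0.0716). Of the TPC channels, which release sodium and calcium, Tpcn2 rose by 0.85 (SE 0.114), whereas Tpcn1 had -0.06 (confidence interval -0.26 to 0.14) and was called lower only without Control replicate 3 (-0.18). The potassium and proton channel Tmem175 rose by 0.34 (SE 0.0667). It shares 3043 exonic bases with Dgkq on the opposite strand, which rose by 0.90, and the strand setting of the counting is not given in the sources used here.

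Of the 9 solute transporters, 8 rose. Ctns, the cystine exporter, had 22.0, 21.2 and 18.9 CPM in the controls and 62.4, 62.7 and 64.4 CPM with MSNP, which gave the largest change of this class (1.61, SE 0.0787, adjusted p = 9.29e-10). Ctns shares 479 exonic bases with Shpk and 268 with Tax1bp3 on the opposite strand, which had log2 fold changes of 0.48 and -0.32. Slc15a3, a proton-coupled histidine and peptide transporter, had 33.9, 33.7 and 31.9 CPM in the controls and 78.8, 75.4 and 73.8 CPM with MSNP and rose by 1.20 (SE 0.0737, adjusted p = 1.10e-08). It overlaps Tmem132a on the opposite strand by 1542 exonic bases, and that gene rose by 0.79. The related Slc15a4 rose by 0.42 (SE 0.0669) and was the only one of the 28 called members to lose its call when each library's trend with transcript length was removed. The nucleoside transporter Slc29a3 rose by 1.25 (SE 0.218), the lysophospholipid transporter Spns1 by 0.93 (SE 0.0947), and the sialic acid exporter Slc17a5 by 0.70 (SE 0.0696). The amino acid exporter Slc36a1 rose by 0.67 (SE 0.155), and Cln3, the protein affected in Batten disease, by 0.50 (SE 0.0951). Slc38a9, the arginine sensor that signals to mTORC1, had 12.6 ± 0.902 CPM (SD, n = 3) in the controls and 13.9 ± 1.07 CPM with MSNP and did not pass (0.14, confidence interval -0.08 to 0.37).

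Related members moved by unequal amounts with MSNP, as ratios of CPM within each library showed. The ratio of Atp6v0d2 to Atp6v0d1 was 0.274, 0.272 and 0.174 in the controls and 0.694, 0.654 and 0.665 with MSNP, 2.80-fold higher (2.46-fold without Control replicate 3). The ratio of Mcoln2 to Mcoln1 was 0.0993, 0.114 and 0.0812 in the controls and 0.303, 0.308 and 0.291 with MSNP, 3.06-fold higher. Neither ratio overlapped between the groups. Atp6v0e2 to Atp6v0e moved the other way, from 0.440 ± 0.0813 (SD, n = 3) to 0.236 ± 0.0115, and Atp6v1c1 to Atp6v1b2 rose from 0.719 ± 0.0409 to 1.45 ± 0.0668. The other 4 ratios rose as well. Tcirg1 to Atp6v0a2 went from 3.59 ± 0.881 to 6.43 ± 1.08, Atp6v0a1 to Atp6v0a2 from 0.756 ± 0.0280 to 1.28 ± 0.0377, Tpcn2 to Tpcn1 from 0.169 ± 0.0246 to 0.314 ± 0.0310, and Slc15a3 to Slc15a4 from 0.775 ± 0.0516 to 1.32 ± 0.0173. With 3 libraries against 3, a two-sided exact permutation test cannot go below p = 0.10, which each of the 8 ratios reached with MSNP (0.15 after adjustment over 32 tests).

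**Figure D4:**
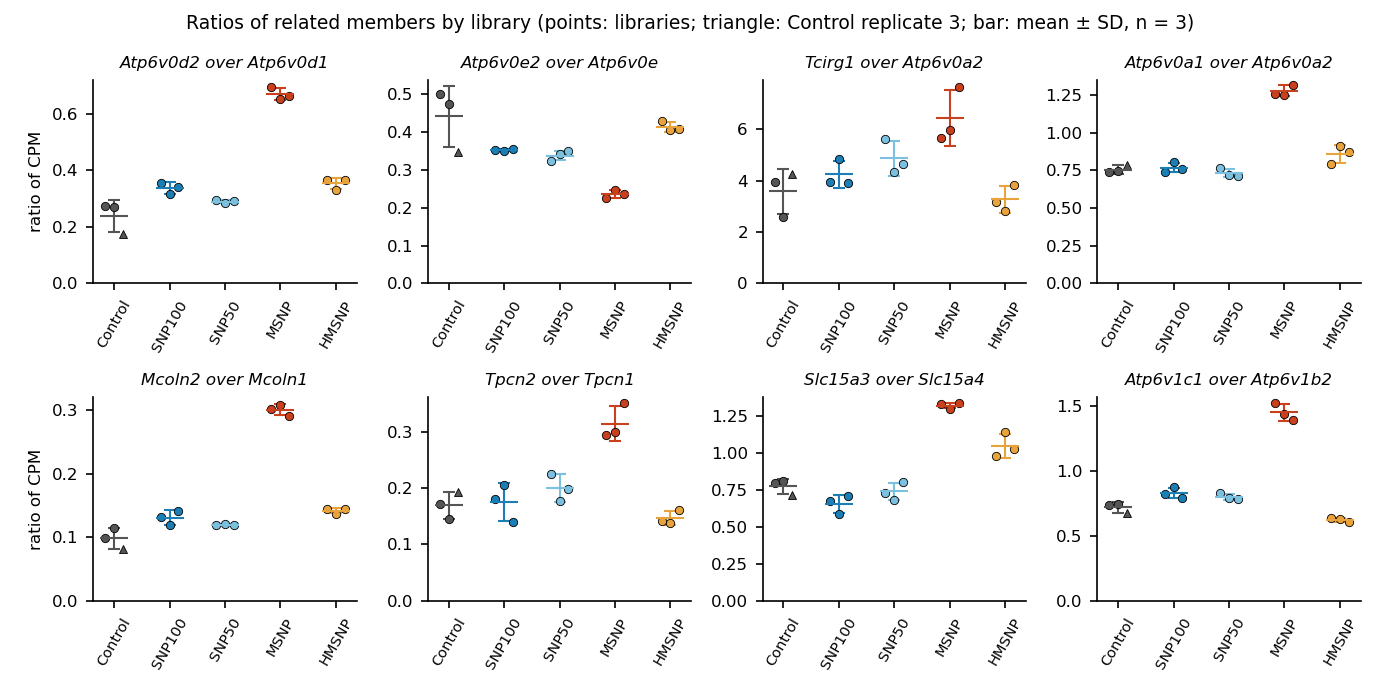
Ratio of the CPM of related members in each of the 15 libraries (linear axes from 0), with the mean ± SD of each group (n = 3) and triangles for Control replicate 3. In 7 panels the MSNP libraries lie above every control, and in the panel of Atp6v0e2 over Atp6v0e they lie below every control (0.236 against 0.440 on average).

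MSNP-treated cells were also compared with SNP100-treated cells, which received particles of the same nominal diameter without pores but at a lower dose, so porosity and dose cannot be told apart. This comparison does not use the controls except for the shared estimate of spread. In it 26 members were higher with MSNP and 1 was lower, beside 17.9% of all tested genes called (10.4% higher and 7.53% lower). Of the pump subunits 11 were higher, with a median of 0.50, and of the channels and transporters 15, with a median of 0.85 (all tested genes -0.03). Apart from Mcoln3, whose counts were low, the order was led by Atp6v0d2 (2.16, SE 0.0813) and Mcoln2 (2.12, SE 0.112), in which every MSNP library was above every SNP100 library (22.9% of all tested genes were, and 22.7% were all below). They were followed by Atp6v1d (1.31, SE 0.0899), Atp6v1c1 (1.30, SE 0.0615), Slc15a3 (1.30, SE 0.0739), Ctns (1.24, SE 0.0776), Atp6v0d1 (1.17, SE 0.0827), Clcn7 (1.15, SE 0.113) and Atp6v1a (1.06, SE 0.118). Mcoln3, with at most 3 counts in each SNP100 library, had a ratio of summed counts of 7.43 (counting interval 2.59 to 29.2). The other members called higher lay between 0.29 (Slc15a4) and 0.98 (Atp6v0a1), and Atp6v0e2 was lower (-0.29, SE 0.0806). The call of Slc36a1 (0.51, SE 0.154, adjusted p = 0.0321) was lost without any 1 SNP100 or MSNP library or HMSNP replicate 1, and that of Atp6v0e2 without SNP100 replicate 3 or MSNP replicate 1. The 9 members that did not pass included the channel Tpcn1 (-0.14, confidence interval -0.34 to 0.07) and the amino acid sensor Slc38a9 (0.08, -0.14 to 0.30).

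HMSNP- and MSNP-treated cells received the same dose by mass of particles of the same nominal diameter. The mean diameters that the study measured were larger for MSNP. Since the particles differ in density, an equal mass need not be an equal number of particles. They also differ in surface composition, and the parts of all these cannot be told apart from that of the hollow core. Here 30 of the 36 members were lower with HMSNP and 1 was higher, beside 20.2% of all tested genes called (11.0% lower and 9.22% higher). The medians were -0.65 for the pump subunits and -0.77 for the channels and transporters (all tested genes 0.00). Apart from Mcoln3, whose counts were low, the largest differences were in Mcoln2, with 5.76, 4.91 and 6.23 CPM with HMSNP (-2.25, SE 0.112, adjusted p = 1.31e-09), and Atp6v0d2, with 42.5, 40.7 and 42.8 CPM (-2.23, SE 0.0815, adjusted p = 7.37e-11). No HMSNP library of either gene overlapped the MSNP libraries, as was so for 23.7% of all tested genes on the lower side. Atp6v1d (-1.74, SE 0.0911), Ctns (-1.52, SE 0.0783), Atp6v1c1 (-1.50, SE 0.0619), Clcn7 (-1.46, SE 0.114), Atp6v0d1 (-1.30, SE 0.0830) and Atp6v1a (-1.27, SE 0.118) came next. Mcoln3 had 2, 0 and 2 counts with HMSNP, and the ratio of MSNP to HMSNP counts was 7.71 (counting interval 2.69 to 30.3). The other members called lower lay between -1.17 (Mcoln1) and -0.29 (Tmem175, Slc15a4 and Atp6v1b2).

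Tpcn1 was the member that was higher with HMSNP than with MSNP (0.29, SE 0.0951, adjusted p = 0.0459), a call near the threshold that was lost under RLE normalization and, like that of Slc29a3 (-0.65, SE 0.214, adjusted p = 0.0447), without any 1 library other than Control replicate 2 or 3. The call of Atp6v1f (-0.52, SE 0.147) was lost without HMSNP replicate 2 or 3. Not called were Atp6v1e1 (-0.33), Slc36a1 (-0.23), Slc38a9 (-0.17), Atp6v0a2 (-0.06, confidence interval -0.30 to 0.17) and Atp6v0e2 (0.17).

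**Figure D5:**
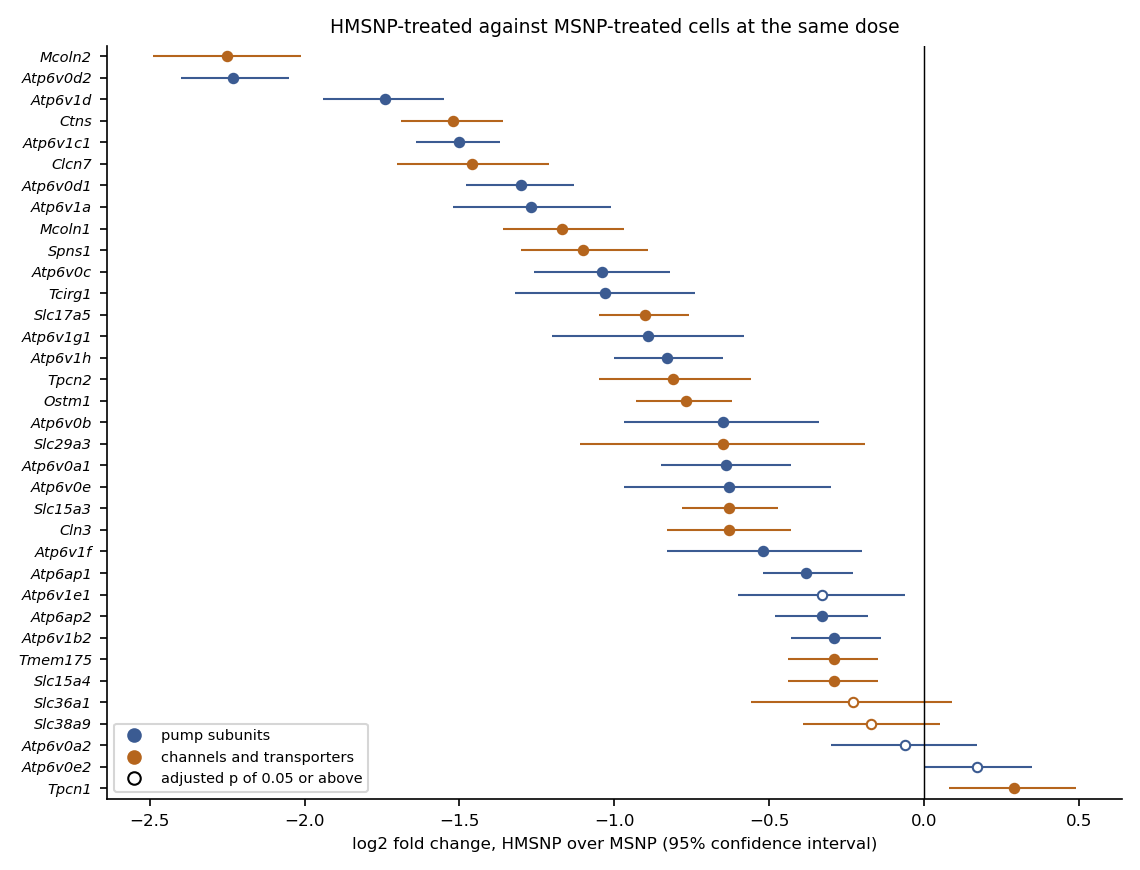
Log2 fold change of HMSNP-treated over MSNP-treated cells with its 95% confidence interval for 35 members (Mcoln3 left out for its low counts), in order of size; open points have an adjusted p of 0.05 or above. Members of both sets are spread along the order, from -2.25 for Mcoln2 to 0.29 for Tpcn1.

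Against the controls, HMSNP-treated cells had 5 called members, 4 higher and 1 lower, beside 5.16% of all tested genes (2.46% higher and 2.70% lower). Medians were near 0, at -0.11 for the pump and 0.09 for the channels and transporters. Without Control replicate 3 they were 0.01 and 0.02. Slc15a3 rose by 0.57 (SE 0.0733, adjusted p = 2.93e-04), with 45.4, 52.9 and 49.3 CPM, all above the controls and below MSNP. Mcoln2 rose by 0.60 (SE 0.119, adjusted p = 0.00861), Atp6v0d2 by 0.47 (SE 0.0795, adjusted p = 0.00251) and Atp6v0a1 by 0.45 (SE 0.0974, adjusted p = 0.0149), the latter with 92.4, 104 and 99.4 CPM. Atp6v0e2 fell by 0.42 (SE 0.0804, adjusted p = 0.00619), with 64.6, 62.7 and 58.8 CPM. In all 5 genes the HMSNP libraries did not overlap the controls, as was so for 10.9% of all tested genes on the higher and 12.0% on the lower side. The osteoclast markers summed to 43.8 to 47.5 CPM with HMSNP, against 48.9 to 63.7 CPM in the controls. Acp5 (28.4 to 30.1 CPM) and Ctsk (8.20 to 8.57 CPM) were below the controls, Dcstamp (5.29 to 6.74 CPM) and Ocstamp (1.94 to 2.41 CPM) were above them, and the part of these genes in the members' values was not tested. For the uncalled members other than Mcoln3, the confidence intervals lay within -0.79 (Atp6v1g1) and 1.06 (Slc29a3). The calls of Atp6v0a1 and Mcoln2 were lost without HMSNP replicate 3, and that of Atp6v0a1 also without HMSNP replicate 2. The count of 5 became 16 without Control replicate 2 (25.2% of all tested genes called) and 10 without Control replicate 3 (8.66%). It was 0 with only the 6 libraries of the comparison in the model (0.439%).

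In SNP100-treated cells 3 members rose, beside 0.912% of all tested genes called (0.509% higher and 0.403% lower). Atp6v0d2 had 46.5, 41.8 and 43.9 CPM and rose by 0.54 (SE 0.0796, adjusted p = 0.00388). Mcoln2 had 6.22, 6.23 and 6.01 CPM and rose by 0.72 (SE 0.119, adjusted p = 0.00743). Ctns had 27.0, 28.0 and 25.1 CPM and rose by 0.37 (SE 0.0780, adjusted p = 0.0389), and this call was lost with the replicate number as a block (adjusted p = 0.0849) and without any 1 library other than HMSNP replicate 2 or Control replicate 2 or 3. In all 3 genes every SNP100 library was above every control, as was so for 5.34% of all tested genes. Medians were 0.08 for the pump and 0.10 for the channels and transporters. Without Control replicate 3 they were 0.16 and 0.04, in the reverse order. The count was 12 without Control replicate 3 (5.16% of genes called) and 6 without Control replicate 2 (1.65%). It was 1 without SNP100 replicate 1 (0.469%) or 2 (0.290%). Of the 12, 8 pump subunits were higher and 1 was lower, and 3 channels and transporters were higher.

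In SNP50-treated cells only Mcoln2 passed the test, beside 1.41% of all tested genes (0.454% higher and 0.958% lower). It had 5.71, 5.75 and 5.73 CPM, all above the controls (6.26% of all tested genes were, and 7.87% were all below), and rose by 0.62 (SE 0.120, adjusted p = 0.0191). The call was lost without any 1 of the SNP50 libraries. Atp6v0d2 had 37.7, 36.5 and 36.5 CPM, above the controls as well, with a log2 fold change of 0.29 and an adjusted p of 0.109. Medians in SNP50 were 0.03 for the pump and 0.13 for the channels and transporters. Without Control replicate 3 they were 0.17 and -0.05, in the reverse order. The count was 16 without Control replicate 3, where 18.9% of all genes were called, and 3 without Control replicate 2 (1.21%). Of the 16, 10 pump subunits were higher and 1 was lower, and 5 channels and transporters were higher. Mcoln2 was thus called in all 4 treated groups and Atp6v0d2 in 3, and since these comparisons share the controls, they are not independent of each other.

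Between the nonporous particles, which differed in diameter and dose, 0 members and 0% of tested genes were called by edgeR's quasi-likelihood test. At an unadjusted p under 0.05 there were 3 members and 867 genes, and DESeq2 called 0 members and 1 gene. The confidence intervals of the members other than Mcoln3 reached from -0.60 (Slc29a3) to 0.43 (Atp6v0b). The members with unadjusted p under 0.05 were all lower with SNP50: Atp6v1a (-0.29), Atp6v0d2 (-0.26) and Slc17a5 (-0.17).

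Levels between members were compared as CPM per kilobase. With all annotated exons as the length, the highest in the controls were Atp6v0b (109 ± 34.7, SD, n = 3), Atp6v1f (80.1 ± 25.5), Atp6ap1 (64.2 ± 6.12), Atp6ap2 (59.1 ± 6.00) and Atp6v1a (47.6 ± 9.91), of which each overlapped the next within 1 SD. With the canonical transcript as the length Atp6v0e came first (295 ± 102), so the order depends on the length chosen. At the low end the order was the same by both lengths: Mcoln2 (1.13 ± 0.203 by exons), Slc38a9 (0.663 ± 0.0474) and Mcoln3 (0.0166 ± 0.00910). With MSNP the sum per kilobase of exons was 1.60-fold that of the controls for the pump subunits (1.75-fold without Control replicate 3), 1.96-fold for the channels and exchangers and 1.84-fold for the solute transporters (1.82-fold for each without it). These are RNA levels of a bulk population, in which fewer cells with a transcript and less of it per cell cannot be told apart.

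Other genes of the system were counted in 4 lists, to be read beside the 22.8% of all tested genes called with MSNP. Of 31 other lysosomal channels and transporters, 30 were tested, and with MSNP 22 rose and 1 fell, with a median of 0.68 (76.7% called). Pacc1, a proton-activated chloride channel, rose by 1.68 (SE 0.0748) and Slc11a2, the iron transporter DMT1, by 1.63 (SE 0.0598), while Kcnma1 was at 0 counts in all controls and at 3 to 6 counts in the MSNP libraries. Tmem63a fell by 0.50. Of 10 tested genes for assembly and regulation of the V-ATPase, 3 rose and 1 fell. Wdr7, a partner of the RAVE-like assembly complex, rose by 1.96 (SE 0.249), Dmxl1 of the same complex by 1.03 (SE 0.328), and the assembly chaperone Vma21 by 0.80 (SE 0.0644), whereas Rogdi fell by 0.62. Without Control replicate 3 the value of Dmxl1 was 0.66. Of 7 other V-ATPase isoforms, known from other tissues, 1 was tested and it was not called.

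The mitochondrial F-type ATP synthase, a rotary machine of related build that makes ATP, is given beside the pump. Of its 17 tested genes, 0 rose and 3 fell with MSNP (17.6% called, below the share of all tested genes), with a median of -0.27, namely Atp5f1e (-0.74, SE 0.243), Atp5mk (-0.67, SE 0.213) and Atp5mj (-0.65, SE 0.221). Without Control replicate 3 none of the 17 was called and the median was 0.02, whereas 22 of the other lysosomal channels and transporters still rose and 1 fell.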

How the data were processed

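The labels place 15 libraries of RAW 264.7 cells in 5 groups of 3. Strand-specific libraries were made by the authors from poly(A) RNA and read as pairs of 150 bases. The submitters' processing notes name cutadapt 1.16, STAR 2.7.9a, featureCounts 1.6.3 and GRCm39. The deposited counts are whole numbers per gene and library without normalization. The annotation release, the strand setting and whether reads or pairs were counted are not given in the sources used here. If strand was not used, overlapping genes share reads.

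Symbols, positions and lengths came from GENCODE vM39, which held 56630 of the 57186 identifiers (the others had 0.0224% of the counts). Genes with at least 10 counts summed were fitted in R 4.3.3 with edgeR 4.0.16: TMM, a single model of all 15 libraries, quasi-likelihood test, Benjamini-Hochberg adjustment, threshold 0.05. Confidence and counting intervals cover 95%, counting intervals only counting error. A group with at most 3 counts per library was taken as at the floor. Of these steps, only the edgeR fit was tested on simulated counts, with genes changed in MSNP.

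The members, lists and comparisons were chosen with earlier results of these data known. Libraries are given for the 8 members with the largest called changes in MSNP, those called in at least 3 groups and those called in SNP100, SNP50 or HMSNP. For each other list, the 3 largest called changes in MSNP are named, as are members of a list called in the opposite direction, chosen after their values were seen. Alternatives were DESeq2 1.42.0, RLE factors, other filters, the 6 libraries of a comparison, a replicate block, a length offset (lowess, span 0.3) and leaving out each library. The offset without Control replicate 3, the canonical length and the ratios were added after seeing the data.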

Additional observations from a re-analysis of the deposited data

How the results depend on the processing

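None of the called differences changed direction under any alternative. With DESeq2 the members called were 8 in SNP100, 8 in SNP50 and 10 in HMSNP (3, 1 and 5 in edgeR). The shares of all tested genes were 2.50%, 3.43% and 9.80% (0.912%, 1.41% and 5.16% in edgeR). With the length offset 7, 8 and 11 members were called, beside 2.71%, 4.70% and 10.2% of genes. With the offset and without Control replicate 3 they were 11, 11 and 12, beside 6.25%, 15.6% and 11.3%. That last setting called 2 members between SNP50 and SNP100 (0 in edgeR), beside 0.974% of genes. With only the 6 libraries of a comparison, 0 were called in each of SNP100, SNP50 and HMSNP and 24 in MSNP. Of all genes tested in these fits, 0%, 0.00574% and 0.439% were called in SNP100, SNP50 and HMSNP. In MSNP they were 2257 of 17389 (4527 of 19839 with all libraries). Between MSNP and SNP100 and between HMSNP and MSNP, where no control enters, 34 members each were called. There 40.9% of all tested genes were called in each, against 17.9% and 20.2% with all libraries, so calls rose among all genes too. The cause was not tested. The pump median with MSNP, 0.50, was 0.63 with the offset and 0.68 with the offset and without Control replicate 3. Leaving out each library in turn gave 1 to 12 called members in SNP100, 0 to 16 in SNP50, 26 to 35 in MSNP and 3 to 16 in HMSNP. It gave 25 to 33 between MSNP and SNP100, 28 to 34 between HMSNP and MSNP and 0 to 1 between SNP50 and SNP100. The shares of all tested genes called were 0.290% to 5.16% in SNP100, 0.443% to 18.9% in SNP50, 17.4% to 33.2% in MSNP and 2.51% to 25.2% in HMSNP. Between particles they were 13.4% to 33.1%, 16.1% to 33.9% and 0% to 0.433%, in the same order. Over the same fits the pump median lay at 0.03 to 0.16 in SNP100, -0.01 to 0.17 in SNP50, 0.46 to 0.69 in MSNP and -0.14 to 0.01 in HMSNP, and that of the channels and transporters at 0.04 to 0.16 in SNP100, -0.05 to 0.28 in SNP50, 0.84 to 0.95 in MSNP and 0.02 to 0.16 in HMSNP. The replicate numbers showed no clear pairing of the libraries. Over 30 pairs with the same number the deviations correlated at -0.52 to 0.57 (median 0.02), 10 of them above 0.1. Over 60 pairs with different numbers they correlated at -0.76 to 0.72 (median -0.01), 21 of them above 0.1. Of the 15 libraries, 8 correlated best with their own number, and these values do not settle whether the libraries were paired. With the replicate number as a block, 2 members were called in SNP100 (0.716% of all tested genes), 1 in SNP50 (0.907%), 28 in MSNP (22.1%) and 5 in HMSNP (4.46%). There were 27 between MSNP and SNP100 (16.9%), 30 between HMSNP and MSNP (19.2%) and 0 between SNP50 and SNP100 (0%). The calls lost were Ctns in SNP100 and Tpcn1 between HMSNP and MSNP. Counts of 3 or fewer limit Mcoln3, which was called with MSNP except when MSNP replicate 2 was left out and which did not pass the stricter filter.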
